A study of Saccharomyces cerevisiae with 40 samples.

Results

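Saccharomyces cerevisiae cells exposed to 100 μM arsenite (AsIII, given as NaAsO2) for 2 h were compared with untreated cells on 4 spotted cDNA arrays, and the changes in RNA on these 4 arrays are described here gene by gene. The arrays were chosen by their label, a 2 h control hybridised against 2 h of 100 μM AsIII, and they are 4 of 20 cDNA arrays and 4 of 40 arrays in all. The cells came from 1 culture that was split, with arsenite added to one portion. The strain was BY4741, a haploid MATa laboratory strain that carries his3Δ, leu2Δ0, met15Δ0 and ura3Δ0. Cells grew at 30 °C in synthetic complete medium, poly(A) RNA was prepared after phenol extraction, and the chip was made in-house. Arrays 1 and 2 carried the treated RNA in the dye Cy3 and arrays 3 and 4 carried it in Cy5. The other cDNA arrays set treated against untreated cells of the same strain after 30 min at 100 μM (4 arrays), 4 h at 100 μM (4 arrays) and 30 min at 1 mM (8 arrays, 2 culture pairs). A further 4 arrays, of Agilent oligonucleotides, repeated the 2 h, 100 μM treatment of the parent strain with other RNA preparations. Since all 4 arrays at 2 h come from 1 culture pair, they repeat the labelling and hybridisation but not the culture.

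Arsenite enters yeast partly through the glycerol channel Fps1 and binds to the thiol groups of proteins and of glutathione. Cells expel it through the plasma membrane exporter Arr3, or move its glutathione conjugate into the vacuole through Ycf1. The thiol-sensing transcription factor Yap1 switches on reductases and thioredoxin genes, Met4 with its partners controls sulfur uptake and methionine synthesis, Hsf1 controls chaperones, and Rpn4 controls the genes of the proteasome, the complex that degrades ubiquitin-tagged proteins.

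Values below are deposited log2 ratios, with treated RNA over untreated RNA, so that 1 stands for a doubling, and values on single arrays are given in the order of arrays 1 to 4. Of 6720 spots 5577 had 1 gene, and spots of the same gene were averaged, which left 5540 genes. The test was limma on the mean of the 4 arrays against 0, two-sided, with Benjamini-Hochberg adjustment over all genes and a threshold of 0.05. The standard error (SE) was estimated from how far the 2 cultures given 1 mM differed, with information shared over all genes, and not from the 4 arrays at 2 h, so the culture at 2 h is assumed to vary like those. By this test 208 genes rose (3.75% of genes tested) and 121 fell (2.18%), or 5.94% in either direction, and 1485 had an unadjusted p under 0.05. Counts of list members below are to be read beside these shares. In place of the test, 360 genes (6.5%) were at least 2-fold up on all 4 arrays and 228 (4.12%) at least 2-fold down.

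Array medians lay between -0.06 and 0.05. Across genes, which are not independent replicates, arrays 1 and 2 correlated with r = 0.94 and arrays 3 and 4 with r = 0.842, while arrays of opposite dye correlated with r between 0.454 and 0.536. All of these arrays share the same pair of RNA samples. The mean of the Cy5 arrays and the mean of the Cy3 arrays lay at least 1 apart for 1134 genes (20.5%), with a median gap of 0.51 in size. This gap was one-sided at the low end. In 422 genes the Cy3 mean was above 0 and the Cy5 mean at or below -1, against 24 genes with a Cy3 mean at or below -1 and a Cy5 mean above 0. The 422 genes included LEU2 (0.82, 0.62, -5.36 and -1.13) and URA3 (0.98, 0.95, -3.40 and -1.20), which are deleted in this strain and have no transcript of their own to measure. HIS3, which the genotype also lists as deleted, was at -1.56, -1.67, -0.55 and -0.78, and MET17, the current name of MET15, was at 0.21, 1.75, -1.41 and 0.68. None of the 4 genes passed the test.

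**Figure D1:**
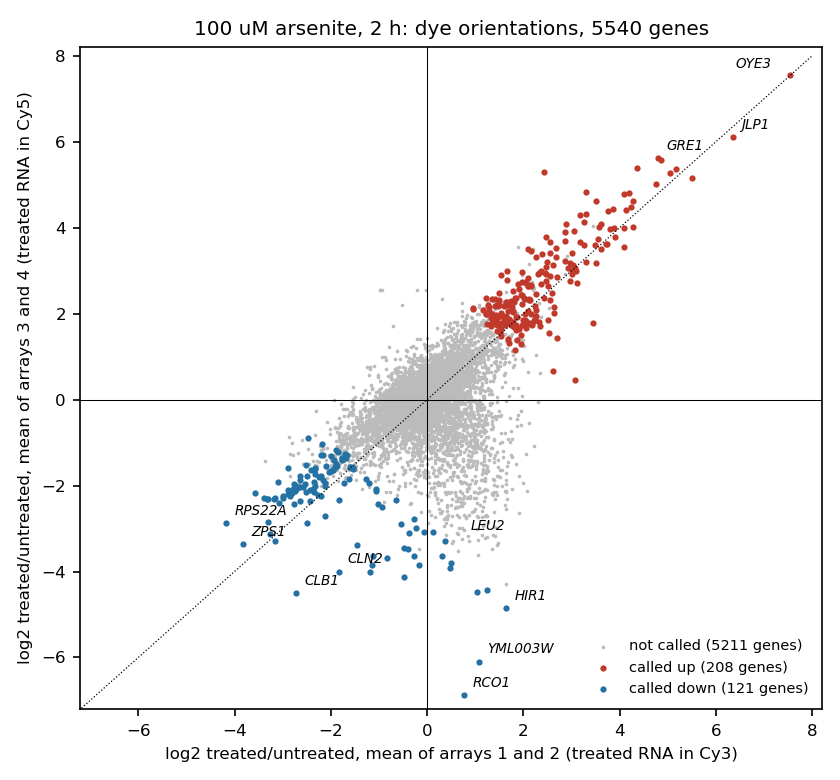
Each point is 1 of 5540 genes, with the mean log2 ratio of the arrays with treated RNA in Cy3 on the x axis and in Cy5 on the y axis, and the dotted line marks equal values. The 208 genes that rose lie along the line, while some of the 121 that fell, such as RCO1, YML003W and HIR1, are low with Cy5 alone, beside a grey tail that holds LEU2.

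The dye gap touched the decreases more than the increases. Of the 208 genes that rose, 207 were above 0 on all 4 arrays and 24 had a gap of at least 1. Of the 121 that fell, 107 were below 0 on all 4 arrays and 40 had a gap of at least 1, 32 of them lower with Cy5. Values at or below -4 occurred in 40 genes on a Cy5 array, in none of them on both Cy5 arrays, and in 1 gene on a Cy3 array. Of the genes that fell, 17 had such a value on a Cy5 array. The 5 called genes with the widest gap were all of this kind. RCO1, a subunit of the Rpd3S histone deacetylase, was at 0.64, 0.90, -10.97 and -2.77, and YML003W at 1.16, 0.98, -10.48 and -1.73. HIR1, a subunit of a histone chaperone complex, was at 1.68, 1.60, -8.24 and -1.46, FMP27 at 1.32, 0.73, -5.67 and -3.29, and ELG1, which unloads the replication clamp, at 1.22, 1.27, -2.37 and -6.51. These 5 genes passed the test on their mean (adjusted p between 0.0232 and 0.0437), with Cy3 values above 0, so the mean does not describe the single arrays. Each gene named below as risen or fallen had the same sign on all 4 arrays unless its values are given.

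**Figure D2:**
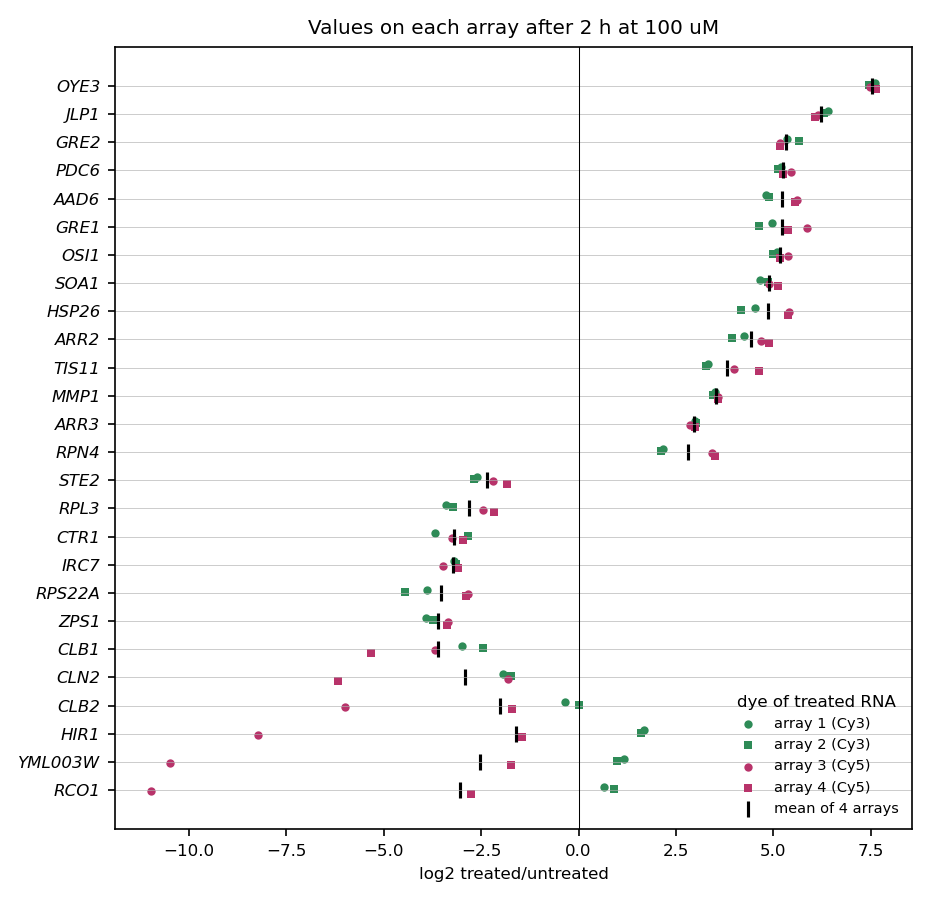
Points give the log2 ratio of 26 genes on each of the 4 arrays, green with treated RNA in Cy3 and magenta in Cy5, and the black bar is their mean. The 14 genes at the top have 4 values above 0, and the lowest 5 rows show single Cy5 values as low as -10.97.

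Of 4 genes of arsenic detoxification 2 rose, with a list median of 1.60. ARR2, the arsenate reductase, was at 4.24, 3.93, 4.68 and 4.88 (mean 4.43, SE 0.47, adjusted p = 0.0212, limma). ARR3, the arsenite exporter that shares its promoter region with ARR2, was at 3.00, 3.02, 2.86 and 2.98 (mean 2.97, SE 0.31, adjusted p = 0.0204). Both were above 0 on every array. ARR2 was 0.70 higher in Cy5 than in Cy3, and ARR3 differed by -0.09. At 30 min ARR2 had been at 6.06 and ARR3 at 4.29, and at 4 h they were at 2.04 and 1.64, so 2 h lay between. ARR1, which encodes their activator, was at -0.27, -1.14, 0.14 and 0.00, and did not pass. Neither FPS1 (0.49, 0.74, -0.38 and 0.10) nor YCF1 passed, and the values of YCF1 turned with the dye, at 1.10 and 1.29 with Cy3 and -1.02 and -2.03 with Cy5.

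Targets of Yap1 formed the most strongly changed list. Of 24 measured, 20 rose and 0 fell (83.3%, against 3.75% of all genes), with a median of 3.08 where all genes had -0.06, and the list medians of the 4 arrays were 2.86, 2.75, 3.56 and 3.55. As for all lists here, members were chosen with earlier results of these data known, so the share is a description. It includes 4 aryl-alcohol dehydrogenase genes, which are uncertain one by one. All 5 reductases rose. OYE3, an NADPH oxidoreductase of the old yellow enzyme family, had the highest mean of all genes and nearly the same value on each array, at 7.61, 7.45, 7.48 and 7.63 (SE 0.35, adjusted p = 0.00995). Its relative OYE2 was lower, at 2.58, 2.52, 3.74 and 3.61 (mean 3.11, SE 0.51, adjusted p = 0.0384). GRE2, a methylglyoxal reductase, was at 5.36, 5.65, 5.17 and 5.16, and OSI1 at 5.09, 4.98, 5.38 and 5.18. FRM2, a nitroreductase-like gene, had a mean of 4.36 with a wide SE of 0.79 (adjusted p = 0.0441). FRM2 had a higher mean at 30 min, at 5.63, and 2 h minus 30 min was -1.28 (SE 1.11). The means of YCF1 and AAD10 of this list were also higher at 30 min, but neither gene passed at 2 h. For YCF1 the difference was -0.23 (SE 0.40), with values at 2 h that turned with the dye.

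All 10 thioredoxin and glutathione enzymes of the list rose, with means between 1.82 and 4.07. GTT2, a glutathione transferase, had a mean of 4.07, SRX1, the sulfiredoxin that repairs oxidised peroxiredoxins, 3.84, and GPX2, a peroxidase, 3.74. Thioredoxin TRX2 was at 3.49, mitochondrial cytochrome c peroxidase CCP1 at 3.04, peroxiredoxins TSA1 and AHP1 at 2.84 and 2.79, and thioredoxin reductase TRR1 at 2.28. At 30 min these 10 genes had a median of 0.82, and each was higher at 2 h. YAP1 itself rose, at 1.67, 1.65, 2.30 and 2.26 (adjusted p = 0.0414), while its paralog CAD1 had a mean of 1.00 and did not pass (adjusted p = 0.103).

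The aryl-alcohol dehydrogenase genes are near-identical copies, and spots of whole genes can bind RNA of a copy, so their values are uncertain one by one. AAD6 was at 4.80, 4.90, 5.61 and 5.55, AAD14 had a mean of 4.03, AAD15 of 3.85 and AAD3 of 2.22, and all 4 rose. AAD4 (1.23, 0.98, -1.46 and 0.51) and AAD10 (-0.08, -0.36, 0.24 and 0.34) did not pass. On the Agilent arrays, whose probes are oligonucleotides, the same genes ranked differently. There AAD4 was highest, with 4 values between 4.73 and 4.97, AAD6 was between 2.70 and 4.21, and AAD14 between -0.02 and 0.52.

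Sulfur genes split by their role. Among 9 genes for the uptake and use of organic sulfur 5 rose, with a median of 2.43. JLP1, which frees sulfite from sulfonates, was at 6.40, 6.29, 6.15 and 6.06 (mean 6.22, SE 0.75, adjusted p = 0.0247). MMP1, the permease for S-methylmethionine, was at 3.51, 3.45, 3.59 and 3.58 (adjusted p = 0.0154), and MHT1, which uses S-methylmethionine to make methionine, had a mean of 2.38. BDS1, a sulfatase, had a mean of 2.36, and MUP3, a methionine permease, 2.99. SOA1, a transporter of sulfonates that was outside the lists, was at 4.66, 4.86, 4.89 and 5.12 (SE 0.32, adjusted p = 0.0154). AGP3, counted with the amino acid permeases, rose to 3.60, 3.51, 3.87 and 4.18, while 13 other permeases did not pass. The cysteine transporter YCT1 was above 2.6 on each array but missed the threshold (mean 2.89, SE 0.67, adjusted p = 0.0675), and so did the methionine permease MUP1 (mean 2.43, adjusted p = 0.122).

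The main route from sulfate to methionine changed less. Of 10 genes for sulfate uptake and reduction 2 rose, the sulfate permease SUL1 (2.18, 2.55, 2.53 and 2.85) and MET1, which makes the cofactor of sulfite reductase (1.27, 1.40, 1.86 and 2.14). All 10 were above 0 on all 4 arrays, with a median of 1.48. MET3, the ATP sulfurylase that starts the pathway, had a mean of 2.64 without passing (adjusted p = 0.0799). Of 14 genes that make homocysteine, cysteine and methionine 0 passed, and their median was 0.08. Within this group the aspartate semialdehyde dehydrogenase HOM2 depended on the dye, at -2.25 and -2.36 with Cy3 and at -0.28 and -0.25 with Cy5. The strain lacks MET17, the enzyme that joins sulfide to O-acetylhomoserine, in treated and untreated cells alike.

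Among the regulators of sulfur genes MET32, a zinc-finger activator, rose (2.64, 2.00, 3.27 and 2.61; adjusted p = 0.0345). MET30, the F-box protein that inactivates Met4, was close to it at 2.30, 1.92, 2.84 and 2.56, but its SE was larger (0.53, adjusted p = 0.061). MET4 itself was at 1.13, MET28 at 0.62, MET31 at 0.51 and CBF1 at -0.20, and none of these 4 passed. IRC7, a cysteine desulfhydrase, went the other way and was among the 15 largest decreases, at -3.20, -3.14, -3.47 and -3.10 (SE 0.28, adjusted p = 0.0154).

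Enzymes that yeast can exchange for forms with fewer sulfur amino acids were followed as a small list of 7. PDC6, the minor pyruvate decarboxylase known for its low content of them, was at 5.19, 5.12, 5.46 and 5.25 (SE 0.29, adjusted p = 0.00995). Its major counterparts PDC1 (-1.74, -1.67, -0.95 and -0.65) and PDC5 (-1.66, -1.11, -0.72 and -0.31) were below 0 on all arrays and did not pass. The enolase pair ENO1 and ENO2 had means of -0.06 and 0.05, with Cy3 values below 0 and Cy5 values above 0 in both. Spots of ENO1 and ENO2, like those of PDC1 and PDC5, can bind each other's RNA. The aldehyde dehydrogenases ALD4 (mean 0.98) and ALD6 (0.24) did not pass.

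Glutathione genes rose in part. Of 21 measured 6 rose and 0 fell (28.6% up, against 3.75% of all genes), with a median of 0.89. Of the 6, 4 stand in the Yap1 list too, GSH1, GLR1, GPX2 and GTT2. GSH1, the first enzyme of glutathione synthesis, was at 2.36, 2.50, 2.28 and 2.43 (adjusted p = 0.04). ECM4, a glutathione transferase, had a mean of 3.42, and DUG3, which takes part in glutathione breakdown, was at 3.02, 2.92, 3.18 and 3.18. For NADPH, which glutathione reductase uses, 1 of 14 genes passed. That gene was ZWF1, the first enzyme of the pentose phosphate pathway, at 1.46, 1.52, 2.31 and 2.66 (adjusted p = 0.0466), while TKL1, a transketolase, had a mean of -1.34 (adjusted p = 0.06) and GND2 one of 1.19 (adjusted p = 0.0695).

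**Figure D3:**
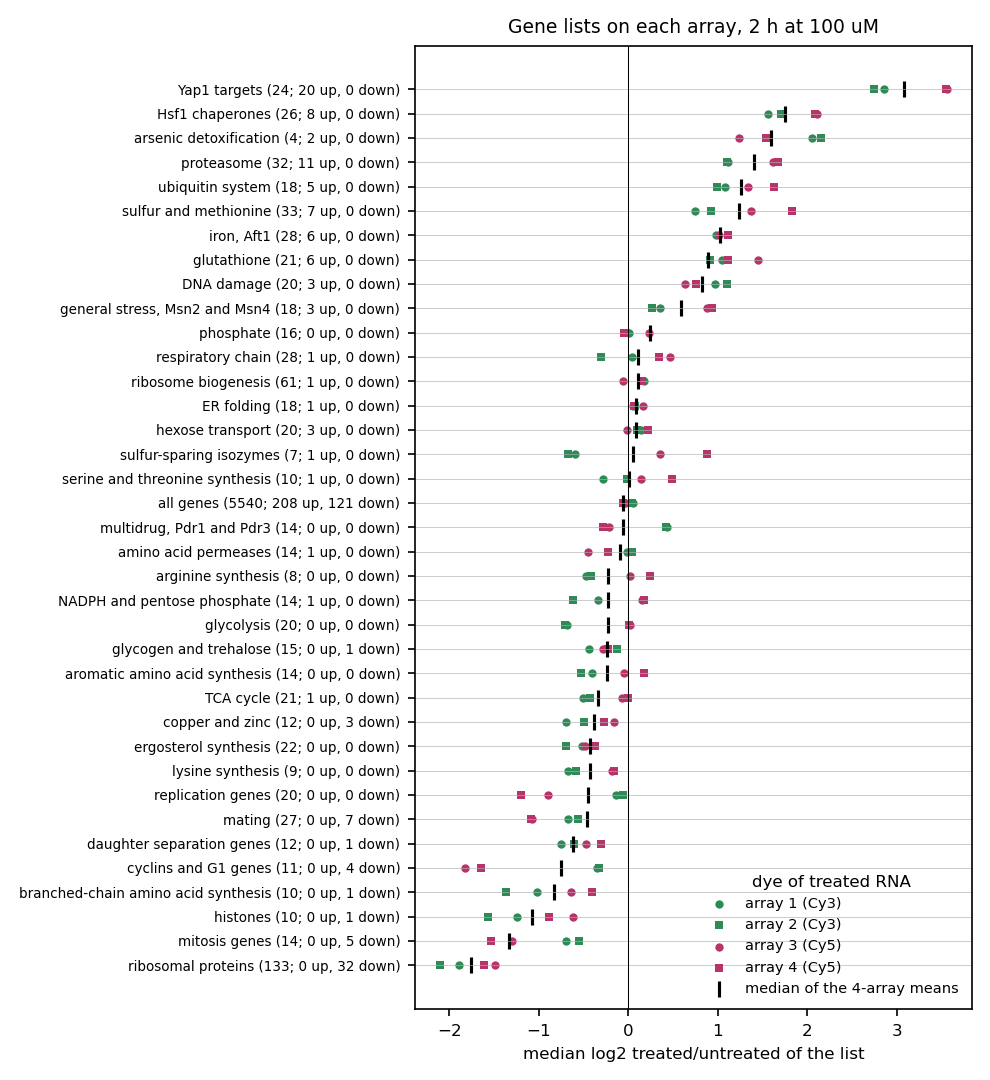
Each row is a gene list with its number of genes and the numbers called up and down, and points give the median log2 ratio of the list on each array, green with treated RNA in Cy3 and magenta in Cy5. Yap1 targets (median 3.08) stand at the top and ribosomal protein genes (-1.76) at the bottom, and cyclin, mitosis and replication genes are lower with Cy5 than with Cy3.

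Metal genes moved in both directions. Of 28 genes under the iron regulator Aft1 6 rose (21.4%, against 3.75% of all genes). The list median was 1.03 and hardly differed between arrays (0.98, 1.12, 1.01 and 1.12). The larger changes were in iron use and recycling, where 4 of 7 rose. TIS11, which promotes the decay of mRNAs for iron-using proteins, was at 3.31, 3.28, 4.00 and 4.62, and its relative CTH1 at 1.98, 2.20, 2.05 and 2.06. ISU2, a scaffold for iron-sulfur clusters, had a mean of 3.70, whereas its paralog ISU1 had one of -0.81 and did not pass. The haem oxygenase HMX1 was at 2.39. Of 21 uptake genes 2 rose, FIT3, a cell wall protein that helps to hold siderophores (1.89, 1.70, 2.83 and 2.21), and the siderophore transporter SIT1 (2.19, 1.93, 1.70 and 1.61). AFT2 had a mean of 1.43 and AFT1 of -0.75, and neither passed.

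Of 12 copper and zinc genes 0 rose and 3 fell (25%, against 2.18% of all genes). The copper transporter CTR1 was at -3.69, -2.83, -3.25 and -2.98 (SE 0.28, adjusted p = 0.0154), and the zinc transporter ZRT1 at -3.26, -3.52, -2.32 and -2.29 (SE 0.47, adjusted p = 0.0385). ZPS1, a cell surface protein known to be induced when zinc is short, was at -3.91, -3.74, -3.36 and -3.37 (SE 0.55, adjusted p = 0.0356). CTR1 was also below 0 at 30 min (-1.80) and at 1 mM (-2.83), and above 0 at 4 h (2.07). For ZPS1 the values were 0.04 at 30 min, 2.62 at 4 h and 1.56 at 1 mM. ZAP1, the zinc-responsive activator, had a mean of -0.86 and did not pass.

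Of 26 chaperone genes under Hsf1 8 rose (30.8%, against 3.75% of all genes), with a list median of 1.75. Of the 26, 24 were above 0 on all 4 arrays (27% of all genes were). HSP26, a small heat-shock protein, was at 4.52, 4.17, 5.39 and 5.37 (mean 4.86, adjusted p = 0.0228), and CPR6, a partner of Hsp90, at 3.52, 3.50, 4.54 and 4.68 (adjusted p = 0.0232). STI1 and AHA1, which also work with Hsp90, had means of 2.87 and 1.79, the Hsp70 gene SSA3 2.71, the Hsp40 gene YDJ1 2.35, and HSP42 2.20. BTN2, which sorts misfolded proteins, had a mean of 3.74, but the culture pairs at 1 mM spread widely (SE 0.97) and it did not pass (adjusted p = 0.0836). The Hsp90 genes HSP82 (2.84) and HSC82 (2.72) also missed the threshold. All 5 mitochondrial chaperones were above 0 on all arrays, with a median of 1.36, and 0 of 5 passed. HSF1 had a mean of 0.36 and did not pass. In the endoplasmic reticulum 1 of 18 folding genes rose, the thiol oxidase ERO1, at 3.24, 2.92, 3.13 and 3.02, and the chaperone KAR2 had a mean of 1.94 with an SE of 0.79.

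Proteasome genes rose in part. Of 32 subunit genes 11 rose (34.4%, against 3.75% of all genes) and 0 fell. The list median was 1.41 with means from 0.35 to 2.07, and 30 genes were above 0 on all 4 arrays. PRE1 of the core particle was at 1.99, 1.47, 2.27 and 2.24 (adjusted p = 0.0325), and RPN2 of the regulatory particle at 2.08, 2.23, 1.84 and 2.13 (adjusted p = 0.0337). RPT3 and RPN6, also of the regulatory particle, had means of 1.93 and 1.87. All 32 genes had a higher mean at 2 h than at 30 min (median 0.29), at 4 h (median -0.14) and after 30 min at 1 mM (median 0.73). RPN4, which encodes the activator of these genes, was at 2.18, 2.12, 3.42 and 3.49 (SE 0.28, adjusted p = 0.0204). Its means were 3.11 at 1 mM and 2.80 at 2 h, a difference of -0.31 that was smaller than its SE of 0.34. In the ubiquitin system 5 of 18 rose. CUZ1, which binds the unfoldase Cdc48 and the proteasome, was highest at 3.36, 3.16, 3.49 and 3.69, followed by the F-box protein UFO1 (mean 2.69), the ubiquitin ligase UBR1 (2.04), the shuttle protein DDI1 (1.96) and the Cdc48 partner UFD1 (1.66).

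Cytosolic ribosomal protein genes were the largest group among the decreases. Of 133 measured 32 fell and 0 rose (24.1%, against 2.18%), and 127 were below 0 on all 4 arrays (26.7% of all genes were). The list medians of the 4 arrays were -1.89, -2.10, -1.49 and -1.61, so the dye gap here was small and opposite in sign to that of the cyclins. RPS22A had -3.88, -4.45, -2.83 and -2.90, RPS22B -3.26, -3.37, -2.78 and -2.89, and RPS7A -3.15, -3.47, -2.43 and -2.20. In the large subunit RPL3 was at -3.41, -3.22, -2.45 and -2.17, RPL5 at -3.08, -3.08, -2.42 and -2.41, and RPL24A at -2.98, -3.36, -1.89 and -2.71. Most of these genes have a near-identical copy, so paralogs such as RPS22A and RPS22B were not measured apart. RPL10, a single-copy gene, stood apart from the group at 0.89, 0.78, 1.83 and 2.11 (mean 1.40, adjusted p = 0.0546), and was chosen here after its values were seen. The activators FHL1 (0.06), IFH1 (-0.21) and SFP1 (0.06) did not pass. Among 61 genes of ribosome biogenesis 1 rose, the RNA helicase HCA4 (mean 2.24, adjusted p = 0.0282), and the median was 0.11.

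Cell cycle genes fell in part, with lower values in Cy5 for several of them. Of 11 cyclin genes 4 fell (36.4%, against 2.18% of all genes). The list medians were -0.35 and -0.32 on the Cy3 arrays and -1.82 and -1.64 on the Cy5 arrays. The G1 cyclin CLN2 was at -1.93, -1.73, -1.82 and -6.17, so 3 arrays lay close together and 1 far below. The mitotic cyclin CLB1 was at -3.00, -2.45, -3.69 and -5.33 (mean -3.62, the lowest mean of the genes with the same sign on 4 arrays). Its paralog CLB2 was at -0.35, 0.02, -5.99 and -1.72, and the S-phase cyclin CLB6 at -0.40, -0.06, -2.93 and -3.06. Of 14 genes expressed in mitosis 5 fell, CLB1 and CLB2 among them, and ALK1, a haspin-like kinase, was the most even at -1.87, -2.11, -1.72 and -1.61 (adjusted p = 0.0404). The Polo kinase CDC5 was as even, at -1.79, -1.66, -1.73 and -1.46, but did not pass (adjusted p = 0.0733). Among 20 replication genes 0 passed, and their Cy3 and Cy5 medians were -0.08 and -1.11. In a bulk culture fewer cells in a stage and less RNA per cell cannot be told apart. The deleted genes LEU2 and URA3 were also low with Cy5 alone, and a part of the dye in these decreases was not tested. On the Agilent arrays the cyclin, mitosis and replication lists had medians of 0.32, 0.14 and 0.35. There 7 of 11 cyclin genes were above 0 on all 4 arrays and 2 below (33.9% and 42.5% of all genes on both platforms were).

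Histone genes were below 0 on all 4 arrays in 10 of 10 cases, with a median of -1.07, and 1 passed. That gene was HTA2, a histone H2A gene, at -2.44, -2.49, -0.57 and -1.22 (mean -1.68, adjusted p = 0.0433), for which the Cy3 arrays were lower. SIM1, which takes part in cell separation, was at -3.49, -3.66, -2.36 and -2.01, and CIP1, an inhibitor of cyclin-dependent kinase, at -2.47, -2.51, -2.72 and -3.01, and both fell (adjusted p = 0.0227 and 0.0232). Of 20 DNA damage genes 3 rose. These were the checkpoint kinase gene RAD53 (2.44, 2.56, 1.86 and 1.81), the DNA glycosylase gene MAG1 (2.20, 2.46, 1.99 and 1.62) and the recombination gene RAD52 (1.52, 1.49, 1.50 and 1.97).

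Of 27 mating genes 7 fell and 0 rose (25.9% down, against 2.18% of all genes). The largest change was in BAR1, the protease that degrades alpha factor, at -3.18, -3.18, -2.32 and -2.29 (adjusted p = 0.0232). AGA2, a subunit of the a-cell agglutinin, was at -2.77, -3.02, -2.15 and -2.07, STE2, the alpha factor receptor, at -2.61, -2.68, -2.21 and -1.85, and the a-factor gene MFA2 had a mean of -2.02. ASG7 (mean -2.03), SST2 (-1.80), which ends pheromone signalling, and STE4 (-1.58), a G protein subunit, fell as well. The 7 genes were below 0 on all 4 arrays. The other 20 ranged up to 1.09, and 6 of them were above 0 on all 4 arrays.

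Carbon metabolism lists differed in their calls. Of 20 genes of hexose transport 3 rose (15%, against 3.75% of all genes). These were HXT9 (3.68, 3.52, 3.37 and 3.64), HXT11 (3.81, 3.67, 3.49 and 3.72) and HXT12 (4.34, 3.82, 3.37 and 3.72), which are near-identical in sequence and cannot be told apart here. The transporters that carry most glucose were near 0, with means of 0.00 for HXT1, 0.03 for HXT3 and 0.17 for HXT7. The isomaltase IMA4 was among the 15 largest increases at 4.20, 4.04, 4.39 and 4.44, and IMA3, one of its close copies, had a mean of 4.14. Spots of these copies can bind each other's RNA. Among the 15 largest increases were also YML131W (4.50), YLL056C (4.45) and YDL218W (4.14), to which no role is given here. In glycolysis 0 of 20 genes passed, and in glycogen and trehalose 0 rose and 1 of 15 fell (6.67%, against 2.18% of all genes). In the TCA cycle 1 of 21 rose (4.76%) and in the respiratory chain 1 of 28 (3.57%), shares close to the 3.75% of all genes. The gene that fell was TPS3, a regulatory subunit of trehalose synthesis, whose values turned with the dye (0.36, -0.10, -3.74 and -2.45). MDH1, the mitochondrial malate dehydrogenase, was at 1.62, 1.89, 2.15 and 2.45, and CYC1, cytochrome c, at 1.59, 1.37, 2.26 and 2.09. Among 18 general stress genes of Msn2 and Msn4 3 rose. GRE1, which encodes a hydrophilin, was at 4.97, 4.63, 5.87 and 5.37, SIP18, another hydrophilin, at 2.35, 2.09, 2.28 and 1.37, and HSP12, a membrane-protecting small heat-shock protein, at 1.70, 1.62, 2.94 and 3.06. DDR2 was at 2.13 just outside the threshold (adjusted p = 0.0504).

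In amino acid synthesis the SE limits what the calls can show. Of 8 genes for arginine, 9 for lysine and 14 for aromatic amino acids 0 passed, and the lowest means for arginine and lysine were those of ARG1 (-1.01) and LYS9 (-1.36). The cultures at 1 mM spread widely for ARG1 (SE 1.75), CPA1 (1.10), ARG4 (0.91) and LYS1 (0.87), less so for LYS12 (0.36) and ARO7 (0.28). Where the SE was wide, a missing call does not show that a gene was unchanged. Of 10 genes for serine and threonine 1 rose, and 3 were at least 2-fold up on all 4 arrays. SER33, a first enzyme of serine synthesis, rose (1.71, 1.34, 3.16 and 2.65). Its paralog SER3 (2.18, 1.56, 1.91 and 2.10) did not pass (adjusted p = 0.0574), nor did SER2, the last enzyme of the route (1.46, 1.03, 1.04 and 1.20). Of 10 branched-chain genes 1 fell, and 8 were below 0 on all 4 arrays. BAT1, the mitochondrial branched-chain aminotransferase, was at -2.60, -2.15, -2.20 and -1.98. All 10 branched-chain genes had a mean below 0, with a median of -0.83. None of 14 multidrug genes, 22 ergosterol genes and 16 phosphate genes passed, with medians of -0.06, -0.43 and 0.24. The lowest means were those of ERG1 (-1.24), squalene epoxidase, and PHO5 (-1.44), a secreted acid phosphatase. In the multidrug list the median was 0.46 on the Cy3 arrays and -0.25 on the Cy5 arrays.

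The next comparison asked how 2 h stood to the other times and the higher dose. As contrasts in the same fit 0 genes differed between 2 h and 30 min, 0 between 2 h and 4 h and 0 between 2 h and 30 min at 1 mM (0% in each), with 860, 1221 and 817 genes at an unadjusted p under 0.05. The smallest adjusted p was 0.0617, for 4 h. With 1 culture pair a time, these differences are therefore given as sizes. At least 2-fold higher at 2 h were 10.4% of genes against 30 min, 14.2% against 4 h and 6.34% against 1 mM, and at least 2-fold lower were 9.28%, 13% and 8.57%. Of the 208 genes that rose at 2 h, 205 had a higher mean at 2 h than at 30 min and 202 a higher mean than at 4 h, and 143 a higher mean than at 1 mM. All 121 that fell were lower at 2 h than at both other times. The values at 2 h chose these genes, so the counts against other times are a description.

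**Figure D4:**
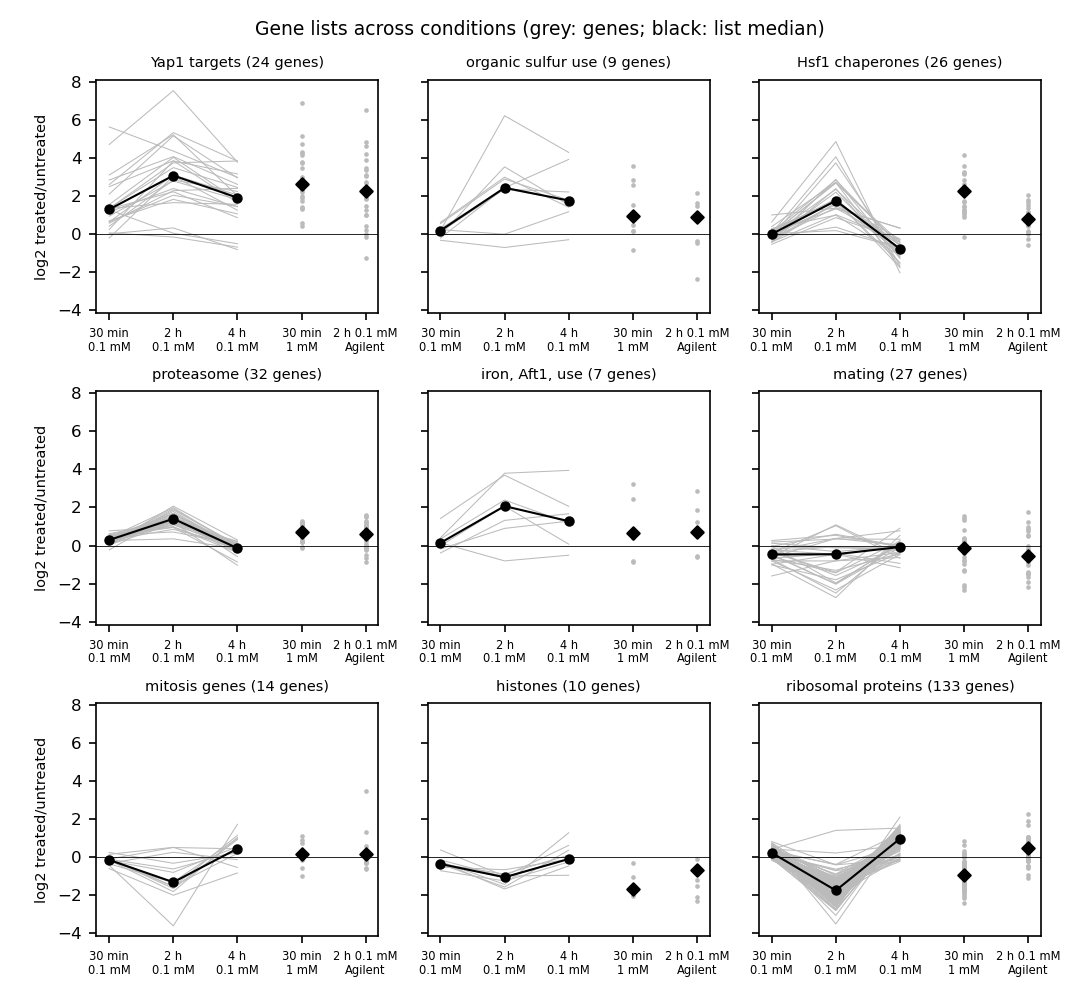
Each panel is a gene list, with the log2 ratio of each gene in grey and the list median in black, after 30 min, 2 h and 4 h at 100 μM (joined), after 30 min at 1 mM and on the Agilent arrays after 2 h at 100 μM. The median of the chaperones goes from -0.01 to 1.75 and -0.78 over time and that of the ribosomal protein genes from 0.22 to -1.76 and 0.96.

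The lists did not share one time course. Median ratios at 30 min, 2 h and 4 h were 1.30, 3.08 and 1.91 for Yap1 targets, which stayed above 0, and 0.18, 2.43 and 1.76 for the genes of organic sulfur use. Chaperones had a median of -0.01 at 30 min and -0.78 at 4 h. Of the 26 chaperones 18 were above 0 on all 4 arrays at 2 h and below 0 on all 4 at 4 h (69.2%, against 6.3% of all genes). For ribosomal protein genes the turn was the opposite, with 104 of 133 below 0 on all arrays at 2 h and above 0 on all arrays at 4 h (78.2%, against 8.45%). These contrasts follow in part from the sign at 2 h. Of 24 chaperones above 0 on all 4 arrays at 2 h 18 turned, and of all 1494 such genes 349 did. Of 127 ribosomal protein genes below 0 on all 4 arrays at 2 h 104 turned, and of all 1481 such genes 468 did. The ribosomal protein medians were 0.22, -1.76 and 0.96 over time and -0.95 at 1 mM. Among single genes HSP26 had means of 0.63, 4.86 and -2.04, and RPL5 of 0.05, -2.75 and 2.10. PDC6 and JLP1 remained high, with means of 4.13 and 4.29 at 4 h after 0.04 and 0.18 at 30 min. MMP1, SOA1 and AGP3 were at -0.05, -0.42 and -0.19 after 30 min at 100 μM, at 0.95, 0.74 and 0.98 after 30 min at 1 mM, and at 3.53, 4.88 and 3.79 at 2 h. GRE1 was at 1.22 at 1 mM and at 5.21 at 2 h. With only 1 time at 1 mM, dose and time cannot be told apart in the differences between 2 h and 1 mM.

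The last comparison set the 4 cDNA arrays beside the 4 Agilent arrays of the parent strain with the same dose and time. The cultures, RNA preparation (whole RNA from a column kit in place of poly(A) RNA), platform and treatment of the ratios differed, so the source of a difference cannot be told apart. On the Agilent arrays 34.7% of genes were called up and 42.7% down by limma over dye-swap pairs, so a call there says little, and values and signs on the 4 arrays are given instead. Across the 5513 genes on both platforms r was 0.382 with the cDNA mean, 0.365 with the Cy3 mean and 0.305 with the Cy5 mean. The 4 Agilent arrays correlated among themselves with r between 0.885 and 0.967.

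Increases and decreases differed in how they looked there. Of the 208 genes that rose on the cDNA arrays, 175 were above 0 on all 4 Agilent arrays (84.1%, against 33.9% of all genes on both platforms) and 112 were at least 2-fold up on all 4 (7.44% of all genes were), with a median of 1.37. Of the 121 that fell, 47 were below 0 on all 4 Agilent arrays (38.8%, against 42.5%), 47 were above 0 on all 4 and 16 were at least 2-fold down (8.53% of all genes were), with a median of 0.16. The ribosomal protein genes among them had a median of -2.37 on the cDNA arrays and 0.48 on the Agilent arrays, where 22 of 32 were above 0 on all 4. The 89 others had medians of -1.80 and -0.23. Of genes at least 2-fold up on every cDNA array, 155 of 360 (43.1%) were so on every Agilent array, which is 37.8% of the 410 there. For genes at least 2-fold down the shared number was 22, or 9.65% of 228 and 4.68% of 470.

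**Figure D5:**
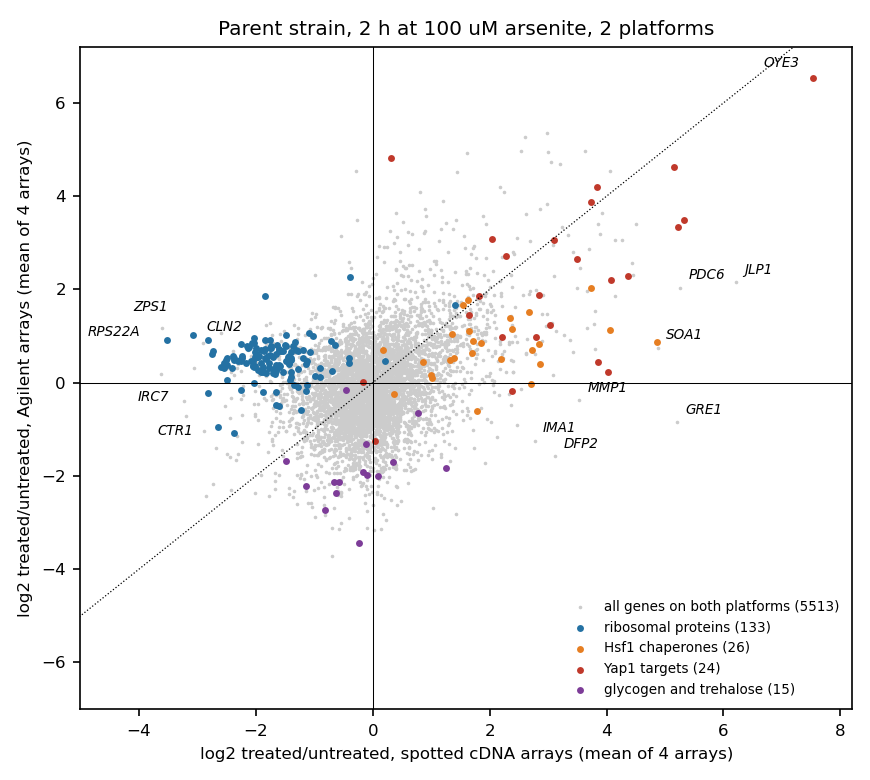
Each point is 1 of 5513 genes, with the mean log2 ratio on the cDNA arrays on the x axis and on the Agilent arrays on the y axis, and the dotted line marks equal values. Yap1 targets are high on both, ribosomal protein genes are low on the cDNA arrays and mostly above 0 on the Agilent arrays, and glycogen and trehalose genes are near 0 and low.

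Yap1 targets were high on both platforms, with a median of 2.24 on the Agilent arrays. There 17 of 24 were at least 2-fold up on all 4 (7.44% of all genes on both platforms were). Glutathione genes were not, with a median of -0.17 there against 0.89 on the cDNA arrays. Of the 21, 9 were below 0 on all 4 Agilent arrays, which is close to the 42.5% of all genes on both platforms. GSH1 was between -0.31 and 0.03. OYE3 was between 6.36 and 6.64 there, SRX1 between 3.75 and 4.64 and GPX2 between 3.81 and 4.04. The exporter ARR3 was between 0.81 and 1.76 and ARR2 between 2.40 and 2.75, both lower than on the cDNA arrays. Genes of organic sulfur use had a median of 0.90 there against 2.43 on the cDNA arrays, and those of homocysteine, cysteine and methionine synthesis 0.19 against 0.08. JLP1 was between 1.94 and 2.39, the isozyme gene PDC6 between 1.77 and 2.26 and SOA1 between 0.59 and 0.86. MMP1 was between -0.49 and -0.26, and SUL1 between -0.30 and -0.03, so these 2 genes lay on opposite sides of 0 on the platforms. Chaperones had a median of 0.77 and proteasome genes one of 0.61, and RPN4 was between 1.72 and 2.17. Iron genes had a median of -0.31 there, and TIS11 was between 0.61 and 0.95. General stress genes had a median of -0.34 there. Of the 18, 9 were below 0 on all 4 arrays and 4 above (42.5% and 33.9% of all genes on both platforms were). HSP12 was between -0.64 and 0.37, DDR2 between -2.05 and -0.08 and SIP18 between 1.37 and 1.64.

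In 84 called genes the Agilent mean had the opposite sign, 19 of the 208 that rose and 65 of the 121 that fell on the cDNA arrays. The share of opposite signs over all genes on both platforms was not counted, so these counts have no background beside them. The widest difference was in GRE1, at 5.21 on the cDNA arrays and between -1.25 and -0.38 on the Agilent arrays. ZPS1 was between 0.84 and 1.51 there, CLN2 between 0.58 and 1.01, and CLB1 between -0.14 and 0.41. DFP2, at 2.30, 2.63, 3.59 and 3.96 on the cDNA arrays, was between -1.66 and -1.51. The isomaltase IMA1, at 2.59, 2.80, 2.79 and 2.89, was between -1.52 and -0.82, whereas its close copy IMA4 was between 2.80 and 3.16. On the cDNA arrays spots of such copies can bind each other's RNA, so their values there are uncertain one by one. RPS22A, RPS22B and RPS7A had Agilent means of 0.91, 1.03 and 0.92. Other genes that fell were below 0 on all arrays of both platforms. BAR1 was between -2.58 and -1.64, STE2 between -1.80 and -1.53, AGA2 between -2.18 and -0.93, ZRT1 between -2.76 and -2.29, HTA2 between -2.16 and -2.02, CTR1 between -0.90 and -0.53 and BAT1 between -1.38 and -1.21.

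Some genes without a call on the cDNA arrays were far from 0 on the Agilent arrays. Glycogen and trehalose genes had a median of -1.99 there and -0.24 on the cDNA arrays at 2 h. On all 4 Agilent arrays 12 of 15 were at least 2-fold down (8.53% of all genes on both platforms were). At 1 mM on cDNA arrays their median was -1.29. The hexose transporter HXT3 was between -3.40 and -2.77 on the Agilent arrays and at -2.64 at 1 mM, but at -0.31, 0.06, 0.03 and 0.35 on the cDNA arrays at 2 h. HXT1 likewise was between -2.84 and -2.48 on the Agilent arrays and at -2.17 at 1 mM. The glycogen branching enzyme GLC3 was between -2.87 and -2.47 on the Agilent arrays, at -3.25 at 1 mM and at -0.81 at 2 h on the cDNA arrays (adjusted p = 0.36). HXT1 and HXT3 were chosen after their values were seen.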

How the data were processed

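Both platforms are 2-colour arrays, and intensities were left aside. What the authors deposited per cDNA array is a log2 ratio with treated RNA on top in either dye orientation. Per the methods they were normalized, by a method not given in the sources used here. Per Agilent array they are log10 ratios, deposited with a limit at 100-fold and converted here to log2. Gene names came from the platform annotation by gene ID. Arrays were averaged within each culture pair, giving 5 pairs in 4 conditions, and Agilent arrays gave 10 dye-swap pairs in 9 conditions. limma 3.58.1 in R 4.3.3 (lmFit, eBayes) fitted each platform with 1 residual degree of freedom, and the cDNA prior had 4.28 degrees of freedom and an SD of 0.311. The number of cultures limits the precision, and the scripts were tested on simulated data. Python 3.11.15 with pandas and matplotlib did the rest.

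Genes were named from a rule that took the 15 largest increases and the 15 largest decreases with 1 sign on 4 arrays, up to 4 members of each of 37 lists with the regulators, the 5 widest dye gaps and the 10 widest opposite values on the Agilent arrays. Not all genes that the rule took are named, since many list members missed the threshold. Other genes named were called members of a list or chosen after their values were seen. The members, lists and tests were chosen with earlier results of these data known. Of 814 list entries 8 were not on the cDNA arrays. Alternatives were centring, either dye alone, arrays as replicates with and without a block, robust eBayes, other thresholds, medians of spots and leaving out an array. The median of the 4 arrays was added after the values were seen. Sequences were not used here.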

Additional observations from a re-analysis of the deposited data

Results flagged for a closer look

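Genes named in the report were marked where all arrays of 2 h lay on one side of 0 and all arrays of another condition on the other. Each condition at 100 μM is 1 culture pair, and no difference between conditions passed the limma contrast, whose adjusted p over these genes was 0.0617 at the lowest.

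Against 4 h at 100 μM, 35 of 164 named genes were opposite in sign. Over all genes, 6.3% were above 0 at 2 h and below it at 4 h, and 8.45% the reverse. Named genes were picked largely by their values at 2 h, so these counts are a description. Those above 0 at 2 h had the following means at 4 h. The chaperone genes were at -2.04 (HSP26), -1.66 (CPR6), -1.28 (STI1), -1.76 (AHA1), -1.74 (SSA3), -0.83 (YDJ1), -1.19 (HSP42), -1.24 (BTN2), -0.64 (HSP82) and -0.59 (HSC82). The stress genes GRE1, HSP12, SIP18 and DDR2 were at -0.75, -1.70, -1.31 and -1.41, and MDH1 was at -0.65. Those below 0 at 2 h were above it at 4 h. The ribosomal protein genes RPS22A, RPS22B, RPS7A, RPL3, RPL5 and RPL24A were at 1.33, 1.46, 1.34, 1.37, 2.10 and 1.10. The cell cycle genes CLB1, CLN2, ALK1 and CDC5 were at 1.72, 0.92, 1.03 and 0.92, and SIM1 at 1.90. The metal genes CTR1, ZPS1 and ZAP1 were at 2.07, 2.62 and 0.40, the pyruvate decarboxylases PDC1 and PDC5 at 0.90 and 0.74, TKL1 at 0.54, BAR1 at 0.53, ARG1 at 0.79 and LYS9 at 0.32.

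Against 30 min at 100 μM, 8 of 164 named genes were opposite in sign, no sign of an excess. Over all genes, 4.15% were above 0 at 2 h and below it at 30 min, and 2.09% the reverse. ARG1, below 0 at 2 h, was at 0.47 at 30 min. The others were above 0 at 2 h and below it at 30 min, with AGP3 at -0.19, ALD4 at -0.45, HSP42 at -0.27, IMA4 at -0.13, KAR2 at -0.55, SOA1 at -0.42 and STI1 at -0.38. Against 30 min at 1 mM, 2 named genes were opposite in sign, with ZPS1 at 1.56 and SIT1 at -1.30. Over all genes, 2.38% were above 0 at 2 h and below it at 1 mM, and 1.12% the reverse.

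On array 4, CLN2 stood far below the other 3 arrays at -6.17 and RAD52 above them at 1.97. By the same measure, Dixon's gap over range, 180 of 5540 genes (3.25%) had an array apart, and chance marks about 1 in 20 groups.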

How the results depend on the processing

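The counts of 208 genes up and 121 down stayed within 1.5 times under centring of each array (278 and 178), robust eBayes (197 and 107), medians over spots (208 and 121), the Cy3 arrays alone (163 and 103) and the median of the 4 arrays (204 and 100), the last chosen after seeing the data. With the Cy5 arrays alone they were 325 and 421. Requiring a 2-fold change and a raw p under 0.001 gave 109 and 46, values outside the normal 95% range on at least 3 arrays 113 and 21, and a 2-fold mean with 1 sign on all 4 arrays 559 and 450. Leaving out 1 array gave 196 to 313 up and 113 to 269 down. Without array 1 there were 281 and 234, and without array 2 there were 313 and 269. Of the genes called, the Cy3 arrays alone kept 135 up and 69 down, and the Cy5 arrays alone kept 196 and 91. In the contrasts, leaving out 1 array at 2 h gave 0 genes each time, and centring gave 92 genes between 2 h and 4 h. The cause of these changes was not tested.

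The array number marks hybridisations of 1 culture pair and pairs no samples. With arrays as replicates and no replicate block, 1179 genes were up and 1170 down, and with a replicate block on array number 1321 and 1438. The contrasts with 30 min, 4 h and 1 mM then gave 1477, 2069 and 1520 genes without the block and 1891, 2461 and 2005 with it. Those p-values measure the spread between hybridisations and not between cultures. On the Agilent arrays the 1940 genes up and 2393 down were 1726 and 2162 without the block, 2067 and 2533 with it and 2166 and 2138 after centring.

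With the Cy3 arrays alone 6 named decreases turned to increases, ELG1 (1.25), FMP27 (1.03), HIR1 (1.64), RCO1 (0.77), TPS3 (0.13) and YML003W (1.07). Leaving out 1 array moved HIR1 between -2.70 and 0.61 and YML003W between -3.74 and 0.14, the higher value without array 3, and ELG1 between -2.55 and 0.04, the higher without array 4. HIR1 was at 0.07 as the median of the arrays. A fit without a culture pair at 1 mM has no residual degrees of freedom and was not run. The number of cultures, with a single pair at 2 h, limits the precision.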
